A study of Homo sapiens with 6 samples.

Results

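The genes that fill, empty and refill the calcium store of the endoplasmic reticulum (ER) were measured by total RNA sequencing in AGS, a cell line from a human gastric adenocarcinoma. They are 10 genes of 60604 read and 17200 tested, taken by symbol. The 3 inositol trisphosphate (IP3) receptor genes ITPR1, ITPR2 and ITPR3 encode the release channels, and ATP2A2 and ATP2A3 encode the SERCA pumps. STIM1 and STIM2 encode the luminal calcium sensors, ORAI1 and ORAI3 encode plasma membrane channel subunits, and MCU encodes the pore of the mitochondrial uniporter. All 10 passed the filter on low counts.

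The indomethacin group held 3 libraries of cells exposed for 24 h to indomethacin at 0.5 mM, a cyclooxygenase inhibitor of the non-steroidal anti-inflammatory class. The control group held 3 libraries labelled with 0 mM, and neither a time nor a vehicle is given for them. Both groups come from this 1 line, and the series was set up around the mitochondrial deacetylase sirtuin 3 as a proposed target of such drugs. The labels do not say whether libraries of 1 group came from separate cultures. The p-values below therefore reflect library-to-library spread, part or all of which may be technical.

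As background, hormones and transmitters that activate phospholipase C produce IP3, which opens its receptors in the ER membrane and lets stored calcium into the cytosol. SERCA pumps return it. When the store runs low, STIM proteins cluster beneath the plasma membrane and open ORAI channels, a process called store-operated entry, and mitochondria that lie close to the ER take up part of the released calcium through MCU. In gastric and other secretory epithelia such signals drive the release of fluid, mucus and enzymes, and prolonged transfer to mitochondria is linked to cell death.

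Total counts were 17535435 to 20094302 in the indomethacin libraries and 20983189 to 23221077 in the control libraries, so that 3 counts corresponded to between 0.129 and 0.171 CPM (counts scaled to a common library total) before TMM scaling. The lowest correlation of log2 CPM between libraries of a group was 0.981, and the highest between groups was 0.900, so no library stood apart from its group. All 6 epithelial marker genes examined (EPCAM, KRT8, KRT18, KRT19, CLDN4 and CDH1) had counts in every library, with a summed level of 2907 to 3214 CPM in indomethacin and 3237 to 3729 CPM in control libraries. They did not move together: EPCAM was at 169.6 to 189.5 CPM in indomethacin and 278 to 294 CPM in control libraries, and KRT8 at 1089 to 1204 and 1548 to 1846 CPM in indomethacin and control libraries. CLDN4 was at 306 to 344 CPM in indomethacin and 84.0 to 123 CPM in control libraries, and CDH1 at 15.9 to 20.1 and 4.55 to 7.50 CPM in indomethacin and control libraries. Among other cell types, summed markers of blood cells (2 of 5 with a count in every library) were at 0.298 to 0.601 CPM in indomethacin and 0.341 to 0.563 CPM in control libraries. Those of fibroblasts and endothelium (3 of 6) were at 9.67 to 11.6 CPM in indomethacin and 6.85 to 8.96 CPM in control libraries. Most of this sum was COL1A1, at 9.25 to 11.1 CPM in indomethacin and 4.07 to 6.44 CPM in control libraries. PDGFRB went the other way, at 0.0497 to 0.143 and 2.13 to 3.24 CPM in indomethacin and control libraries. Summed markers of muscle and nerve (3 of 5) were at 1.19 to 1.44 CPM in indomethacin and 5.80 to 7.08 CPM in control libraries. Most of that sum in control libraries was DES, at 0.547 to 0.808 and 5.46 to 6.71 CPM in indomethacin and control libraries. COL1A2, DCN and SNAP25 were at 0 in every library of at least 1 group. The part of these differences in the results was not tested. Transcripts of the mitochondrial chromosome took 16.7% to 19.7% of counts in indomethacin and 22.8% to 26.8% in control libraries. Leaving that chromosome out changed no call among the 10 genes.

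Indomethacin libraries had more RNA of STIM1 and ORAI1 but less of STIM2, and a different mixture of release channels. The SERCA pump genes were near their control levels. ITPR1, ITPR3, ORAI1 and STIM1 rose, ITPR2, MCU and STIM2 fell, and ATP2A2, ATP2A3 and ORAI3 did not pass the test. The counts were 4 higher, 3 lower and 3 not called of 10 (quasi-likelihood test of edgeR, p adjusted by Benjamini-Hochberg over all genes, threshold 0.05), where 61.6% of all genes tested were called, 30.6% as higher and 31.0% as lower. The groups did not overlap in CPM for 7 of the 10, against 67.0% of all genes tested. The share of these genes that changed is thus near the background, and what follows is which genes moved, in which direction and by how much. The median log2 fold change over the 10 was 0.02 and over all genes 0.045. Each of the 10 had the same call in all 15 fits, the reported one and 14 alternatives. In bulk RNA, fewer cells of a kind and less RNA per cell cannot be told apart.

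**Figure D1:**
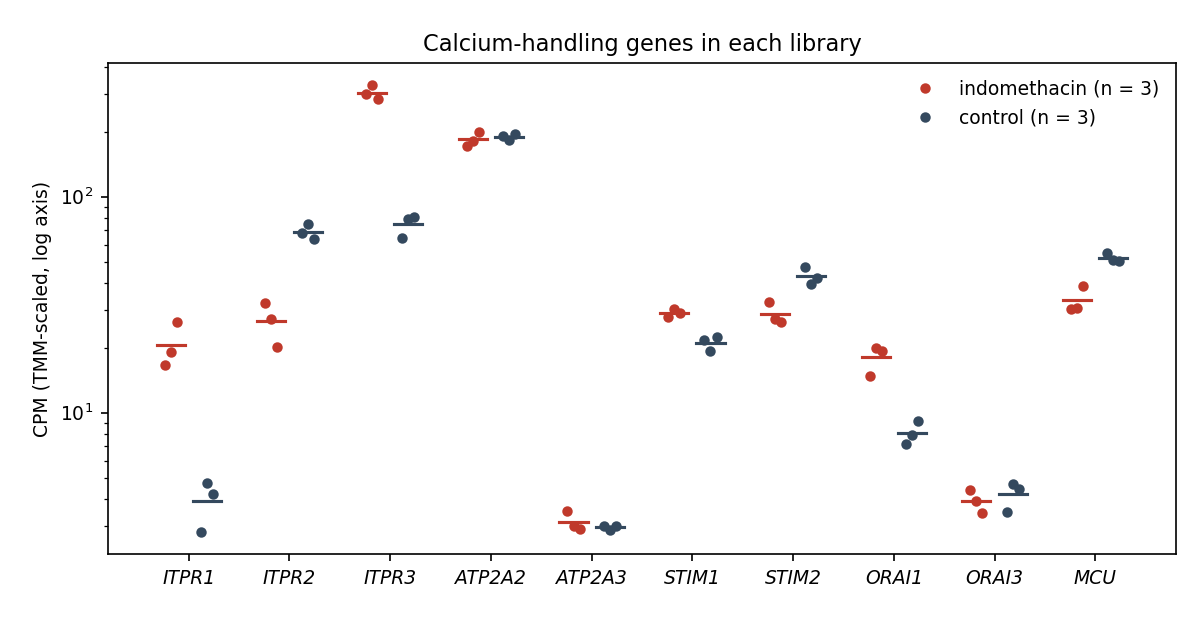
CPM of the 10 genes in each library (vertical axis, log scale, TMM-scaled), with indomethacin libraries in red at the left and control libraries in dark blue at the right of each gene. Points are libraries and short lines are means (n = 3 each). The groups are apart for 7 genes and overlap for ATP2A2, ATP2A3 and ORAI3.

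Among the release channels, ITPR3, the receptor typical of epithelial and secretory cells (chromosome 6, 33620365 to 33696574, plus strand, identifier ENSG00000096433), had 299, 328 and 284 CPM in the indomethacin libraries, against 64.1, 79.0 and 80.6 CPM in the control libraries. Every indomethacin value was far above every control value. ITPR3 rose 4.07-fold (log2 fold change 2.03, SE 0.12; edgeR adjusted p = 7.4e-09). Its exons share 1025 of 9870 bases with UQCC2 on the opposite strand, a gene with 3540 counts over the 6 libraries where ITPR3 had 22494, so its value is uncertain to that extent.

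ITPR1, the receptor best known from neurons (chromosome 3, 4493345 to 4847506, plus strand, ENSG00000150995), had 16.6, 19.2 and 26.2 CPM in the indomethacin libraries, against 2.80, 4.73 and 4.22 CPM in the control libraries. The control values rest on 57, 111 and 90 counts. ITPR1 rose 5.24-fold (log2 fold change 2.39, SE 0.21; edgeR adjusted p = 4.3e-07), a larger absolute log2 fold change than that of 92.3% of all genes tested.

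ITPR2, the receptor with the highest affinity for IP3 (chromosome 12, 26335352 to 26833194, minus strand, ENSG00000123104), moved the other way. It had 32.1, 27.1 and 20.2 CPM in the indomethacin libraries and 68.1, 74.6 and 63.7 CPM in the control libraries. ITPR2 fell 2.59-fold (log2 fold change -1.37, SE 0.15; edgeR adjusted p = 2.4e-06), and every control value was above every indomethacin value.

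The mixture of IP3 receptor RNA therefore differed between the groups. Counts were divided by the exon length of each gene in the files and given as a share of the sum over ITPR1, ITPR2 and ITPR3, a measure that scaling between libraries cannot change. ITPR3 made up 91.5%, 92.9% and 92.7% in the indomethacin libraries, against 56.6%, 59.2% and 63.4% in the control libraries. ITPR2 made up 5.70% ± 1.16 in indomethacin and 39.3% ± 3.58 in control libraries, and ITPR1 1.95% ± 0.589 and 0.957% ± 0.175 in indomethacin and control libraries (SD, n = 3 each). The groups did not overlap for any of these 3 shares, and each gave an exact permutation p of 0.1 (two-sided), the smallest that 3 against 3 allows, or 0.12 after Benjamini-Hochberg adjustment over 6 shares. The 3 shares add up to the whole in each library, so they are not separate results. They restate the changes of the 3 genes given above.

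The length used bears on all 3 shares. The exons of ITPR1 in the files cover 32120 bases, although its longest coding sequence in GENCODE 29 is 8274 bases, so a level per exon base sets it low. Per base of coding sequence ITPR1 made up 5.78% ± 1.69 in indomethacin and 2.57% ± 0.480 in control libraries, and ITPR3 86.8% ± 0.933 in indomethacin and 50.8% ± 3.46 in control libraries (SD, n = 3 each). By that measure ITPR2 made up 7.47% ± 1.56 in indomethacin and 46.6% ± 3.8 in control libraries, the latter near ITPR3. The summed level of the 3 receptors was 33.1, 35.8 and 31.0 CPM per kilobase of exon in the indomethacin libraries, against 11.5, 13.5 and 12.9 in the control libraries. That sum, chosen after the values were seen and so not tested, did not overlap between the groups. Per exon base ITPR3 made up the larger part of that sum in both groups. In plain counts ITPR2 was above ITPR3 in control replicate 1 (1389 against 1306) and below it in control replicates 2 and 3.

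**Figure D2:**
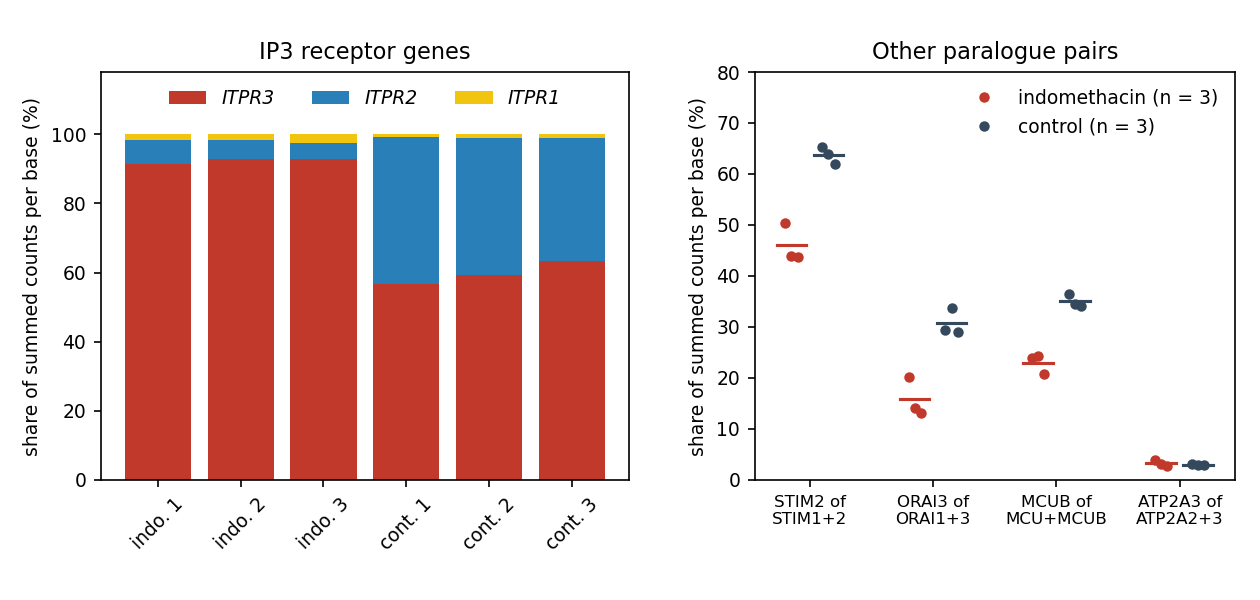
Left, share of each IP3 receptor gene in their summed counts per exon base (percent) in the 3 indomethacin and 3 control libraries, as stacked bars. Right, the same kind of share for 4 paralogue pairs, with indomethacin libraries in red at the left and control libraries in dark blue at the right, points for libraries and lines for means (n = 3 each). ITPR3 fills 91.5% or more of each indomethacin bar and at most 63.4% of each control bar, and only the ATP2A3 share overlaps between groups.

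The SERCA pump genes gave the smallest differences of the 10 along with ORAI3. ATP2A2, whose product SERCA2 is the pump of most cell types (chromosome 12, 110280756 to 110351093, plus strand, ENSG00000174437), had 171, 182 and 200.1 CPM in the indomethacin libraries and 190.1, 183 and 196 CPM in the control libraries. The groups overlapped. Its log2 fold change was -0.04 (SE 0.10, 95% interval -0.26 to 0.18; edgeR adjusted p = 0.75), a narrow interval beside the fold changes of the IP3 receptor genes. The sign turned with upper-quartile factors (0.08) and with a filter of 1 CPM (0.01).

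ATP2A3, the gene of SERCA3 (chromosome 17, 3923870 to 3964464, minus strand, ENSG00000074370), was listed at 3.52, 2.98 and 2.88 CPM in the indomethacin libraries and 2.99, 2.86 and 3.00 CPM in the control libraries. It rests on 48 to 74 counts a library, and its log2 fold change of 0.09 (SE 0.23; edgeR adjusted p = 0.76) has a wider 95% interval, -0.40 to 0.57. It made up 3.30% ± 0.585 of the SERCA pair per exon base in indomethacin and 3.01% ± 0.0390 in control libraries (SD, n = 3 each; two-sided exact permutation p = 0.7). Without indomethacin replicate 1 its log2 fold change was -0.03 and the difference in share -0.0323 percentage points, both of opposite sign.

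Of the luminal sensors, STIM1, the main activator of ORAI channels (chromosome 11, 3854527 to 4093210, plus strand, ENSG00000167323), had 27.8, 30.1 and 29.1 CPM in the indomethacin libraries, against 21.7, 19.3 and 22.3 CPM in the control libraries. STIM1 rose 1.38-fold (log2 fold change 0.46, SE 0.11; edgeR adjusted p = 0.0032), a smaller absolute log2 fold change than most genes tested had, whose median was 0.662.

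STIM2, a weaker activator that responds to small losses of luminal calcium (chromosome 4, 26857601 to 27025381, plus strand, ENSG00000109689), had 32.7, 27.2 and 26.3 CPM in the indomethacin libraries, against 47.1, 39.5 and 42.0 CPM in the control libraries. It fell 1.49-fold (log2 fold change -0.58, SE 0.12; edgeR adjusted p = 0.00094), and all 3 indomethacin values were lower than every control value. That absolute log2 fold change was larger than that of 45.0% of all genes tested. Per exon base STIM2 was 46.0% ± 3.79 of the STIM pair in indomethacin and 63.7% ± 1.66 in control libraries (SD, n = 3 each; two-sided exact permutation p = 0.1, the smallest possible). STIM2 was 50.4%, 43.9% and 43.8% of the pair in the indomethacin libraries, against 65.3%, 63.9% and 62.0% in the control libraries.

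Of the channel subunits, ORAI1, the pore of the calcium release-activated channel (chromosome 12, 121626550 to 121642677, plus strand, ENSG00000276045), had 14.8, 20 and 19.4 CPM in the indomethacin libraries, against 7.16, 7.85 and 9.20 CPM in the control libraries. ORAI1 rose 2.24-fold (log2 fold change 1.16, SE 0.16; edgeR adjusted p = 2.6e-05). ORAI3, a paralogue found only in mammals (chromosome 16, 30949068 to 30956461, plus strand, ENSG00000175938), had 4.37, 3.88 and 3.42 CPM in the indomethacin libraries and 3.48, 4.65 and 4.41 CPM in the control libraries. Its groups overlapped, and its log2 fold change was -0.10 (SE 0.22, 95% interval -0.57 to 0.36; edgeR adjusted p = 0.71), with the sign turned by upper-quartile factors (0.02). ORAI3 shares 1397 of 2641 exon bases with the gene ENSG00000261487 on the same strand, which had 3 counts over the 6 libraries, so reads of that stretch may have been counted for neither.

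Within the ORAI pair the share of ORAI3 per exon base was 20.2%, 14.2% and 13.1% in the indomethacin libraries, against 29.4%, 33.7% and 29.1% in the control libraries. The groups did not overlap (two-sided exact permutation p = 0.1, the smallest possible). If reads of the stretch shared with ENSG00000261487 were not counted, these shares are too low in both groups. ORAI2, the remaining paralogue, fell to 3.53 ± 0.437 CPM in indomethacin libraries, against 5.48 ± 0.195 CPM in control libraries (SD, n = 3 each; log2 fold change -0.63, SE 0.20; edgeR adjusted p = 0.014). Of the ORAI genes ORAI1 was the member that rose.

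MCU, the pore of the mitochondrial uniporter (chromosome 10, 72692131 to 72887694, plus strand, ENSG00000156026), had 30.3, 30.6 and 38.6 CPM in the indomethacin libraries, against 54.6, 51.2 and 50.4 CPM in the control libraries. Indomethacin replicate 3 was the highest of its group and still below every control value. MCU fell 1.57-fold (log2 fold change -0.65, SE 0.12; edgeR adjusted p = 0.00028), a larger absolute log2 fold change than that of 49.5% of all genes tested.

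**Figure D3:**
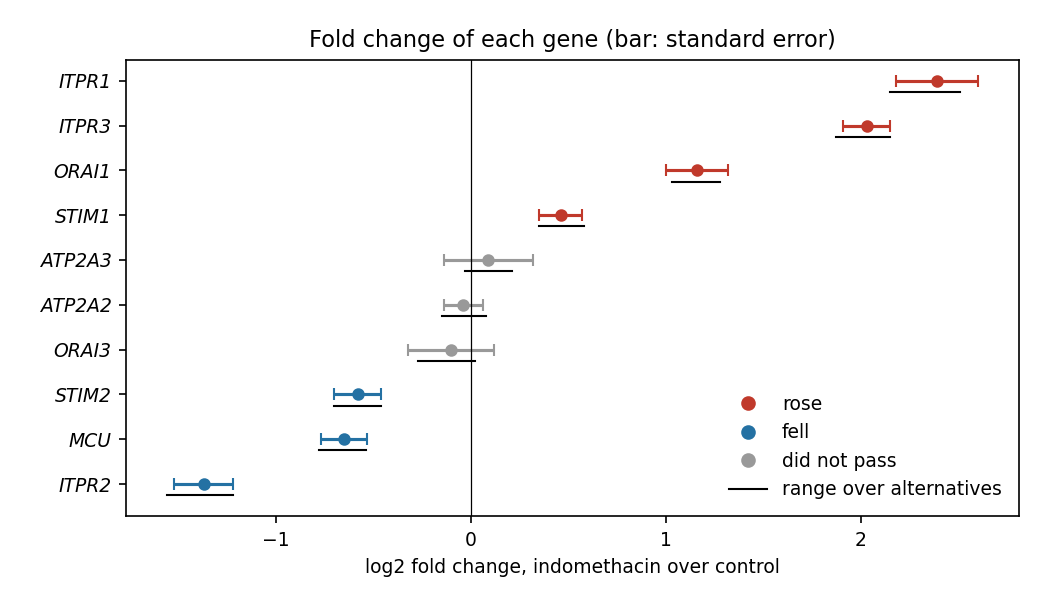
Log2 fold change of each gene, indomethacin over control (horizontal axis), with the standard error as a bar; black lines give the range over 14 alternative fits. Red genes rose, blue genes fell and grey genes did not pass the test. The ranges of ATP2A2, ATP2A3 and ORAI3 cross 0 and those of the other 7 do not.

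Per kilobase of exon, the order of the levels differed between the groups at the top. In the indomethacin libraries ITPR3 was first at 30.8 ± 2.30 CPM per kilobase, followed by ATP2A2 at 13.4 ± 1.06, ORAI1 at 8.0 ± 1.26 and MCU at 7.32 ± 1.03. ATP2A2 led in the control libraries at 13.8 ± 0.461 CPM per kilobase, followed by MCU at 11.5 ± 0.486, ITPR3 at 7.55 ± 0.925 and STIM2 at 5.18 ± 0.470 (SD, n = 3 each). In the indomethacin libraries the values of ORAI1 and MCU overlapped, as did those of STIM1 and STIM2 and those of ITPR2 and ORAI3, while in the control libraries STIM2 and ITPR2 overlapped. The lowest were ATP2A3 in indomethacin libraries at 0.454 ± 0.0494 CPM per kilobase and ITPR1 in control libraries at 0.122 ± 0.0313. That order depends on the length used. Per kilobase of longest coding sequence, an alternative added after the values were seen, ATP2A2 led in both groups, at 59.0 ± 4.68 CPM in indomethacin and 60.7 ± 2.03 CPM in control libraries. ITPR3 was then at 37.9 ± 2.83 CPM per coding kilobase in indomethacin libraries, next to ATP2A2 but overlapping MCU, and at 9.30 ± 1.14 in control libraries, below STIM2 and overlapping ORAI1 (SD, n = 3 each).

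Start sites of 7 of the 10 genes were in a RefSeq promoter table on GRCh38.p14, with 12 sites in all. ITPR2, ATP2A3 and ORAI1 were not among them. The 250 bases before each start were searched on both strands for elements known from the ER stress and integrated stress responses, the ER stress element (CCAAT, 9 bases of any kind, CCACG), the ER stress element II (ATTGG, 1 base of any kind, CCACG) and TTGCATCA, and for the cyclic AMP response element TGACGTCA. These letters were in 0 of the 12 windows, against 0.0740%, 0.0513%, 0.772% and 1.65% of all 35116 windows. The GC box GGGCGG was in 8 of the 12, against 42.6% of all windows, and the CCAAT box CCAAT, which is also part of the first of those elements, in 4, against 32.0%. Windows of 1 gene can overlap each other, so the same box can be counted in more than 1 window, and a match is a description of letters only. Some windows lie partly or wholly in exons of the same gene. Those exons take up 250 of 250 bases for ITPR3, 244 in an MCU window and 131 in an ATP2A2 window.

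A window each of ITPR1 and STIM1, which rose, and of MCU, which fell, is printed to show the range of these boxes, 5′ to 3′ on the plus strand, with matches on either strand in capitals. That of ITPR1 lies at chr3:4493098-4493347 and holds no match, a STIM1 window at chr11:3855414-3855663 holds 8 GC boxes, some of which overlap, and an MCU window at chr10:72691893-72692142 holds 1 GC box and 1 CCAAT box. Their GC content is 64.8%, 77.2% and 58.0%. These windows were chosen after the matches were seen, and windows of 1 gene differ as much: the other 3 of STIM1 hold 0, 2 and 8 GC boxes, and the other of MCU holds 2 GC boxes and no CCAAT box. The other STIM1 window with 8, at chr11:3855453-3855702, overlaps the printed one and holds the same boxes.
ITPR1: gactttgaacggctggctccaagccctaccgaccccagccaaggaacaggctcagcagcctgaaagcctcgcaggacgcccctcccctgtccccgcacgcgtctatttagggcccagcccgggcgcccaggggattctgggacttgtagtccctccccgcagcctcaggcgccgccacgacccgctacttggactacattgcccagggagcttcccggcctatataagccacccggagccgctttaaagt
STIM1: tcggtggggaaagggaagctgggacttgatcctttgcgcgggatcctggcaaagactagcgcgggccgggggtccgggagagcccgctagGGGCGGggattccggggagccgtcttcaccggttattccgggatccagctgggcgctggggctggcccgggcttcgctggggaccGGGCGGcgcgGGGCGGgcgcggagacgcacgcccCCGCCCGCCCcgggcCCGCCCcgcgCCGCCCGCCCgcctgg
MCU: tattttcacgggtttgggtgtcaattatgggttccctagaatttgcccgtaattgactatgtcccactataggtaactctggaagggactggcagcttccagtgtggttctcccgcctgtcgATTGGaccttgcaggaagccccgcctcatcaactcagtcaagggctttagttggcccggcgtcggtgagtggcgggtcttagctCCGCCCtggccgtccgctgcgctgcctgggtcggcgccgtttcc

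Around these genes, 129 others of calcium handling were listed by role, of which 127 were matched and 104 tested. Of the 104, 28 rose and 47 fell, or 72.1% called, where 61.6% of all genes tested were called. Their median log2 fold change was -0.30, against 0.045 for all genes. The lists were drawn up with earlier results of these data known, so the counts describe them and are not evidence of a shared direction. The share called in a list was between 33.3% (SERCA regulators) and 84.6% (phospholipase C and IP3 turnover), to be read beside that 61.6%.

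IP3 metabolism moved in both directions. Of 13 genes tested for phospholipase C and IP3 turnover, 8 fell and 3 rose (median log2 fold change -0.84). Among the phospholipases listed, PLCH1 fell to 3.12 ± 0.795 CPM in indomethacin libraries, against 16.7 ± 0.817 CPM in control libraries. PLCB4 fell 3.60-fold, while PLCD3 rose 1.92-fold. The list does not hold the whole family. PLCH2, a phospholipase C gene outside it, rose as well (log2 fold change 1.72, SE 0.44, edgeR adjusted p = 0.0037). The kinases that phosphorylate IP3 differed in direction. ITPKA rose to 104 ± 19.1 CPM in indomethacin libraries, against 3.61 ± 0.169 CPM in control libraries (28.7-fold; log2 fold change 4.84, SE 0.16; edgeR adjusted p = 9.2e-11), and ITPKC rose 2.93-fold. ITPKB fell to 7.65 ± 1.43 CPM in indomethacin libraries, against 36.7 ± 4.81 CPM in control libraries.

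Of 12 tested partners of the IP3 receptors, 5 rose and 5 fell (median 0.04, and -0.27 to 0.15 over the alternatives). ITPRIP, an IP3 receptor interacting protein, rose to 22.3 ± 1.17 CPM in indomethacin libraries, against 7.70 ± 0.886 CPM in control libraries, and its relative ITPRIPL2 rose 2.07-fold. AHCYL2, related to an IP3-competing receptor binder, rose 2.09-fold. ITPRID2, which anchors receptors to actin, fell 1.48-fold, ERLIN1, part of the complex that marks active receptors for degradation, 1.49-fold, and the apoptosis inhibitor BCL2L1, which binds the receptors, 1.33-fold. BCL2L1 shares 1735 of 4197 exon bases with ABALON on the opposite strand, so its value is uncertain.

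Of 8 other release and leak channels of the ER tested, 4 fell, 2 rose and 2 did not pass (median -0.60). The ryanodine receptor RYR2, best known from heart muscle, fell to 1.19 ± 0.424 CPM in indomethacin libraries, against 6.72 ± 1.1 CPM in control libraries (log2 fold change -2.51, SE 0.27; edgeR adjusted p = 2.6e-06). RYR1 had 20 counts over the indomethacin libraries and 8 over the control libraries and was not tested. RYR3 was at 1.61 ± 0.564 CPM in indomethacin and 2.57 ± 0.873 CPM in control libraries and did not pass (edgeR adjusted p = 0.11), but did without indomethacin replicate 1 (0.032), without control replicate 3 (0.029) or with no filter on low counts (0.044). The leak channel TMCO1 and the polycystin PKD2 fell 1.59-fold and 1.53-fold. The translocon subunit SEC61A1 rose 1.42-fold.

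Among other calcium pumps and exchangers 3 rose and 1 fell of 7 tested (median 0.59). ATP2B4, a pump that exports calcium across the plasma membrane, had the largest change of this list. It rose to 864 ± 52.7 CPM in indomethacin libraries, against 89.9 ± 5.52 CPM in control libraries (9.61-fold; log2 fold change 3.26, SE 0.12; edgeR adjusted p = 1.5e-10). Its paralogue ATP2B1 rose 1.33-fold and the Golgi pump ATP2C1 fell 1.48-fold. ATP2A1, the muscle SERCA gene, was at 1.40 ± 0.406 CPM in indomethacin and 0.931 ± 0.298 CPM in control libraries and did not pass (edgeR adjusted p = 0.17). The sodium-calcium exchanger SLC8A1 rose 2.01-fold at 1.87 ± 0.128 CPM in indomethacin against 0.928 ± 0.429 CPM in control libraries, a call lost without indomethacin replicate 1 (edgeR adjusted p = 0.067), indomethacin replicate 2 (0.053), control replicate 2 (0.075) or control replicate 3 (0.12).

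Of 6 matched SERCA regulators 3 could be tested, and TMX1, a redox protein that binds SERCA2, fell to 37.8 ± 6.59 CPM in indomethacin libraries, against 94.7 ± 4.89 CPM in control libraries. In this list 2 genes fell without control replicate 3 or without indomethacin replicate 1. Of 9 other genes of store-operated entry tested, 4 rose and 2 fell (median 0.19). ESYT1, which tethers the ER to the plasma membrane, rose 1.75-fold, and the cation channel TRPC1 and the EF-hand gene CRACR2B rose 2.31-fold and 1.81-fold. EFHB, another EF-hand gene, fell to 0.141 ± 0.0431 CPM in indomethacin libraries, against 0.705 ± 0.129 CPM in control libraries, on 8 and 46 counts. ORAI2 was the other gene of this list that fell.

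Calcium-binding proteins of the ER lumen were split, with 4 higher and 5 lower of 12 tested (median -0.07, and -0.54 to 0.05 over the alternatives). The chaperone and calcium store protein HSPA5 (BiP) rose to 2234 ± 881 CPM in indomethacin libraries, against 315 ± 38.4 CPM in control libraries. NUCB2 rose 1.62-fold and CALU 1.27-fold, with the CALU call lost without control replicate 1 (edgeR adjusted p = 0.054), without control replicate 2 (0.064) or with no filter (0.11). In each of the fits that left out 1 of those libraries 2 genes of the list rose. The reticulocalbins RCN1, RCN2 and RCN3 all fell, 1.61-fold, 1.58-fold and 3.87-fold.

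**Figure D4:**
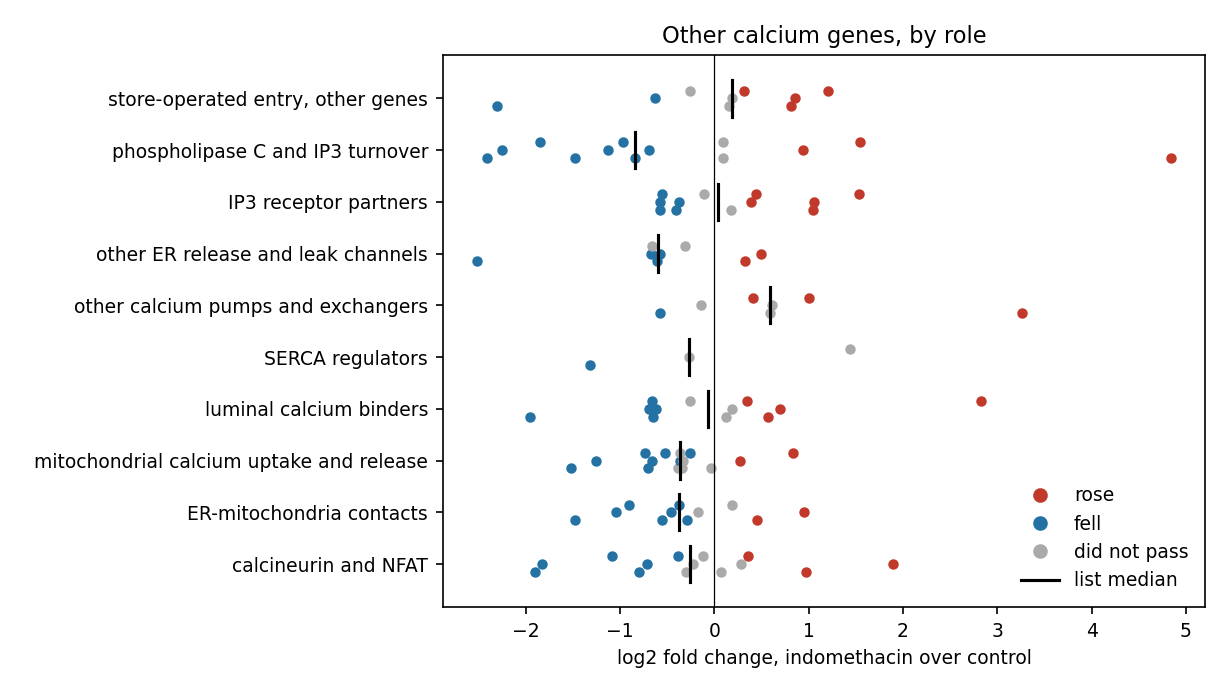
Log2 fold change, indomethacin over control (horizontal axis), of the 104 other calcium genes tested, by role. Red points rose, blue points fell and grey points did not pass the test; vertical black lines are list medians. The farthest points are ITPKA at 4.84 and ATP2B4 at 3.26 to the right and RYR2 at -2.51 to the left.

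Some genes that act with MCU fell as it did, and others rose or did not pass. Of 15 genes of mitochondrial calcium uptake and release, 8 fell and 2 rose (median -0.36). That is 66.7% called, near the 61.6% of all genes tested. Over the alternatives 6 to 10 fell and 1 to 2 rose. MCUB, a paralogue that dampens the pore, fell to 7.70 ± 0.234 CPM in indomethacin libraries, against 22.1 ± 2.20 CPM in control libraries (log2 fold change -1.52, SE 0.14; edgeR adjusted p = 4.0e-07). The gatekeeper MICU2 fell to 29.6 ± 2.29 CPM in indomethacin libraries, against 49.2 ± 1.19 CPM in control libraries. MICU3 and the scaffold subunit SMDT1 had log2 fold changes of -0.38 and -0.36 and did not pass (edgeR adjusted p = 0.093 and 0.10).

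MCUB was 23.9%, 24.3% and 20.8% of MCU and MCUB together per exon base in the indomethacin libraries, against 36.5%, 34.6% and 34.1% in the control libraries, a share chosen after the values were seen. The groups did not overlap. The outer membrane channel VDAC3 fell 2.37-fold and the protease AFG3L2 1.62-fold, and GHITM, an inner membrane protein, rose 1.78-fold. VDAC2 rose 1.21-fold (edgeR adjusted p = 0.043), a call lost in 8 of 14 alternatives, 5 of them fits that drop a library: indomethacin replicate 2 (0.077), indomethacin replicate 3 (0.16), control replicate 1 (0.075), control replicate 2 (0.24) and control replicate 3 (0.15).

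Of 11 genes of contacts between ER and mitochondria, 7 fell and 2 rose (median -0.37). FUNDC1, a mitochondrial receptor that binds at these contacts, fell to 5.95 ± 0.721 CPM in indomethacin libraries, against 16.6 ± 1.44 CPM in control libraries. BCAP31, an ER membrane protein, fell 1.87-fold. HSPA9, the mitochondrial chaperone that links IP3 receptors to VDAC1, rose to 1231 ± 193 CPM in indomethacin libraries, against 638 ± 7.92 CPM in control libraries, and the ER tether PDZD8 rose 1.36-fold. PDZD8 shares 2157 of 9854 exon bases with SLC18A2 on the opposite strand, so its value is uncertain.

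Downstream of calcium entry, 6 of 14 tested genes of calmodulin, calcineurin and NFAT fell and 3 rose (median -0.26). That is 64.3% called, near the 61.6% of all genes tested. Over the alternatives 5 to 8 fell and 2 to 4 rose, with a median of -0.45 to -0.13. The calcineurin inhibitors CABIN1 and RCAN1 fell 3.57-fold and 3.73-fold, RCAN1 being also a known target of NFAT. The catalytic subunit PPP3CC rose 1.96-fold and NFATC4 rose to 2.02 ± 0.235 CPM in indomethacin libraries, against 0.533 ± 0.0930 CPM in control libraries. DYRK1A, a kinase that returns NFAT to the cytosol, rose 1.28-fold.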

How the data were processed

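Total RNA of 6 AGS libraries was sequenced as read pairs after depletion of ribosomal RNA with a stranded kit, per the labels' protocols. The authors deposited raw counts per gene, 1 table a library, with exon coordinates and exon length on hg38, per the file headers. bcl2fastq, FastQC 0.11.7, cutadapt 1.16, HISAT2 2.1.0, SAMtools, featureCounts and DESeq2 are named, per the submitters' processing notes. The counting's strand setting and its gene annotation are not given in the sources used here, so genes with overlapping exons are uncertain.

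From every library 3 of 60607 lines, the broken record of 1 gene, were left out. Symbols covered 60462 of 60604 identifiers, and ERLN and ARLN were not matched. Genes were filtered with filterByExpr, scaled with TMM factors and put through the quasi-likelihood test of edgeR 4.0.16 (R 4.3.3) with group as the only term and Benjamini-Hochberg adjustment over 17200 genes, threshold 0.05. Standard errors are those the test implies. CPM are TMM-scaled counts, as mean ± SD. Intervals of a log2 fold change use the total degrees of freedom of that test. These are the residual ones plus those gained by sharing information between genes. Counts of any 2 libraries of a group gave a chi-square of 7.91 to 25.9 per degree of freedom, above sampling noise. CPM floors cover counting error only.

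The 10 genes, the lists and the tests were chosen with earlier results of these data known. Named genes were the 10, up to 3 that rose and 3 that fell with the smallest adjusted p in each list, and ORAI2, the ryanodine receptors, ATP2A1 and the MCU complex; some genes this rule names are not reported here. The alternatives were DESeq2 1.42.0, limma-voom (limma 3.58.1), RLE and upper-quartile factors, no mitochondrial chromosome, no filter, a filter of 1 CPM in 3 libraries, replicate number as a block, and leaving out each library. The fit was tested on simulated data, where edgeR recovered 55.2% of 1.5-fold, 86.6% of 2-fold and 100% of 4-fold changes. Of its 170 calls there 9 were false. Far fewer genes were changed there than were called here, so the scaling between such different groups was not tested.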

Additional observations from a re-analysis of the deposited data

How the results depend on the processing

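The calls of the 10 genes were the same in the reported fit and in 14 alternatives, with 4 higher and 3 lower in each. Of 140 alternative log2 fold changes of these genes 5 changed sign, all of genes that did not pass: ATP2A2 at 0.01 with a filter of 1 CPM and 0.08 with upper-quartile factors, ATP2A3 at -0.02 with no filter and -0.03 without indomethacin replicate 1 (up to 0.13 with another library left out), and ORAI3 at 0.02 with upper-quartile factors. Upper-quartile factors moved the median of all genes from 0.045 to 0.162. The difference in share between indomethacin and control libraries was 3.21, -39.1 and 35.9 percentage points for ITPR1, ITPR2 and ITPR3 per base of coding sequence, an alternative added after the data were seen, and 3.31, -39.3 and 36 from plain counts, against 0.997, -33.6 and 32.6 per exon base; the lengths used set these values, and the order of the levels. The planned coding length from a RefSeq protein table was not run. The ITPR1 share difference was 0.659 percentage points without indomethacin replicate 3. Leaving out 1 library moved the ATP2A3 share difference between -0.0323 and 0.54 percentage points. The median over the 104 other calcium genes was -0.36 with no filter, -0.18 with upper-quartile factors and between -0.38 and -0.27 with 1 library left out.

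Equal replicate numbers are not said to pair libraries, and with 3 libraries a group their correlations cannot settle it. Same-numbered libraries deviated from their group means with correlations of 0.0233, 0.0117 and 0.132. Indomethacin replicates 2 and 3 correlated best with the control library of the same number, and indomethacin replicate 1 with control replicate 2 (0.131). With the number as a block, 5249 genes were higher and 5352 lower, against 5264 and 5327 without, and 4 and 3 of the 10 genes. Of 769 alternative values of the 55 other genes named with a test, 23 lost and 3 gained a call and 0 changed sign. DYRK1A lost its call with no filter (edgeR adjusted p = 0.10). Depth limits ATP2A3, ORAI3 and ITPR1 in control libraries, with 48 to 111 counts each.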
